A study of Homo sapiens and Mus musculus with 24 samples.

Results

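The human genes named LINC followed only by a number are long intergenic noncoding RNAs (lncRNAs) that were given a catalogue name because no function was known when they were named. Of 58381 human genes listed in the deposited count tables, 2246 bear such a symbol, and 263 of these reached a mean of 2 CPM (counts scaled to a library total of 1000000) in the nonirradiated samples of HepG2 or HEK293. These 263 genes are called the LINC members here. They were 225 genes in HepG2 and 100 in HEK293, of which 62 reached the limit in both lines, 163 in HepG2 only and 38 in HEK293 only. The limit lay between 1.99 CPM for LINC01725 and 2.08 CPM for LINC01409 in HepG2, and between 1.96 CPM for LINC01145 and 2.02 CPM for LINC01703 in HEK293. Because it reads nonirradiated samples, a gene that is detected only after irradiation cannot be a member.

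The series measured UPA-seq, in which RNA is sequenced from UV-irradiated and from nonirradiated cells after phenol extraction. HepG2 is a human hepatocellular carcinoma line and HEK293 a human embryonic kidney line, for which the culture methods of the study give the name HEK293T. Each line had 3 irradiated and 3 nonirradiated samples, numbered 1 to 3 in the labels, with no other treatment or genetic change named. The 12 samples of mouse cells in the series were not used here, since mouse genes carry no LINC numbers. Each line stands for the cells of 1 established culture, and the p-values below measure the spread between these samples only. The libraries held 36573473 to 53511592 counts in HepG2 and 9444707 to 11188033 in HEK293. The sequencer model and the version of the counting program also differed between the lines, and cannot be told apart from the cell line in any comparison between them. The cell labels were checked with marker genes. All 10 hepatocyte genes listed, such as ALB and APOA1, were at 1 CPM or more in HepG2 and 1 was in nonirradiated HEK293. Of 6 genes listed for HEK293, 5 were at that level in nonirradiated HEK293 and 2 in HepG2.

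UV light makes covalent bonds between RNA bases and amino acids that touch them, and of the bases uridine reacts most readily. On phenol extraction RNA bonded to protein moves to the interphase with the denatured protein, and free RNA stays in the aqueous phase, from which the libraries were made. A lower level after irradiation therefore means fewer reads of an RNA relative to the other RNAs of the same library. Loss of the RNA from the aqueous phase and poorer reverse transcription of irradiated RNA cannot be told apart in these counts. LncRNAs are transcribed and often spliced and polyadenylated like mRNAs, many remain in the nucleus near the site of their synthesis, and many are made in few cell types.

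The exon sequences of the members differ in how much T they hold, the base that stands for uridine in the RNA. The stretches below are shown for members among the lowest and highest after irradiation, described further on, to let their T runs be compared. Each is the most T-rich stretch of 60 bases in the member's exons, on the transcribed strand and 5′ to 3′, in the hg38 build. Capitals mark runs of 4 or more T. LINC00670 and LINC01355 were among the lowest after irradiation in HepG2, LINC02809 was the lowest in HEK293, LINC00324 and LINC03064 were the highest in HepG2 among members at 2 CPM there, and LINC01033 and LINC01023 were the highest in HEK293.
LINC00670, exonic, chr17:12635856-12635915, plus strand, 39 T: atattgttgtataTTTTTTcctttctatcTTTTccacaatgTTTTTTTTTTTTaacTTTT
LINC01355, exonic, chr1:23285133-23285192, minus strand, 36 T: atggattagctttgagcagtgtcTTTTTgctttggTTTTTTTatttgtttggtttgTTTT
LINC02809, exonic, chr1:228074572-228074631, minus strand, 27 T: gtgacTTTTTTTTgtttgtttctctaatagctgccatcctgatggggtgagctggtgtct
LINC00324, exonic, chr17:8222578-8222637, minus strand, 21 T: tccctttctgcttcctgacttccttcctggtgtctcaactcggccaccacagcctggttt
LINC03064, exonic, chr16:52610899-52610958, plus strand, 35 T: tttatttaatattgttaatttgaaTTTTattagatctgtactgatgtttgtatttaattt
LINC01033, exonic, chr5:54390847-54390906, plus strand, 22 T: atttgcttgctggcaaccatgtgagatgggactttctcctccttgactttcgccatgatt
LINC01023, exonic, chr5:108727853-108727912, minus strand, 24 T: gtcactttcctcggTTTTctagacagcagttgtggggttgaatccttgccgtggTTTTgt
The stretches of the lowest members do not all hold more T than those of the highest, since that of LINC03064 holds almost as much as that of LINC01355 and LINC02809 has only 27. LINC02912, which was second lowest in HepG2, is not shown, and its exons hold 25.2% T, near the median of the members. Over all members with such a stretch, its median T count was 32 in the 147 members lower after irradiation in HepG2, 31 in the 42 not called and 28.5 in the 40 that were higher. In HEK293 the medians were 34 in 35 lower members, 31 in 79 not called and 26 in 20 higher members. The longest run of T had a median of 7 bases in the lower members and also 7 in those not called in both lines, and 5 in the higher members.

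In HepG2 the LINC members were mostly less abundant in the libraries of irradiated cells. Of 238 members tested, 155 were lower and 41 higher after irradiation, and 42 passed in neither direction (edgeR quasi-likelihood test, Benjamini-Hochberg adjusted p under 0.05 over 20117 genes). This is 65.1% lower against 40.7% of all genes tested, and 17.2% higher against 38.1%. Their median log2 fold change was -1.11, and that of all genes tested was -0.08. Of the 225 members at 2 CPM in HepG2 itself, 149 were lower and 38 higher, with a median of -1.22. Among the other lncRNAs at the same limit, 878 of 1989 (44.1%) were lower with a median of -0.18, and among protein-coding genes 4110 of 12310 (33.4%) with a median of 0.22. The limit itself favours genes with high nonirradiated values. With the mean of 2 CPM taken over all 6 samples of a line, 97 of 172 genes tested in HepG2 were lower and 40 higher, with a median of -0.64. Where no sample was under 10 counts 100 of 164 members were lower with a median of -0.66, and the scaling was recomputed on the genes left. No share of all genes or of other lncRNAs chosen in these ways is given, so the excess that remains over them cannot be read. The remaining 25 members, all at or under 0.468 CPM in nonirradiated HepG2, were below the limit of the test there, and 10 of them had no count in any nonirradiated HepG2 sample.

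**Figure D1:**
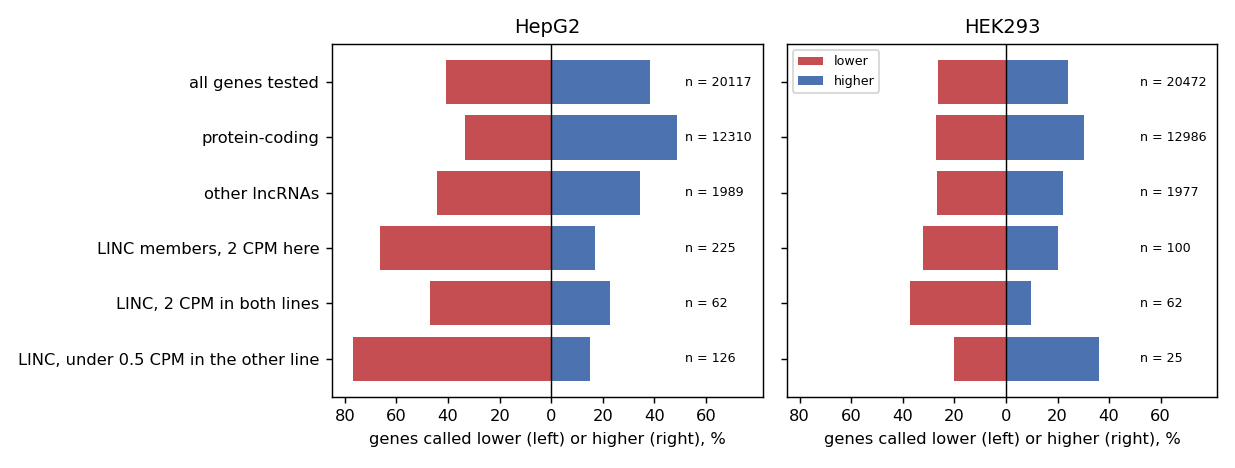
Percentage of genes called lower (red, left of 0) or higher (blue, right of 0) after UV irradiation in HepG2 and HEK293, by gene class, with the number of genes tested. The rows for protein-coding genes, other lncRNAs and LINC members hold genes at 2 CPM or more in nonirradiated samples of that line. In HepG2 the red bar of the LINC members reaches 66.2% and in HEK293 32.0%.

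The changes of the members in HepG2 did not form a single heap. The paper reports a bimodal distribution for lncRNAs as a whole in HepG2, so this shape was not shown to be particular to the LINC members. A first group lay near the middle of all genes, with 56 members between -1.0 and 0.0, and a further group lay around the class from -3.0 to -2.5, which alone held 36 members. The classes between, from -2.0 to -1.0, held 29. In all, 95 members had a log2 fold change under -2 and 38 under -3, whereas 18 were above 1. In HEK293 14 of 137 members were under -2 and 4 under -3, and 16 were above 1.

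**Figure D2:**
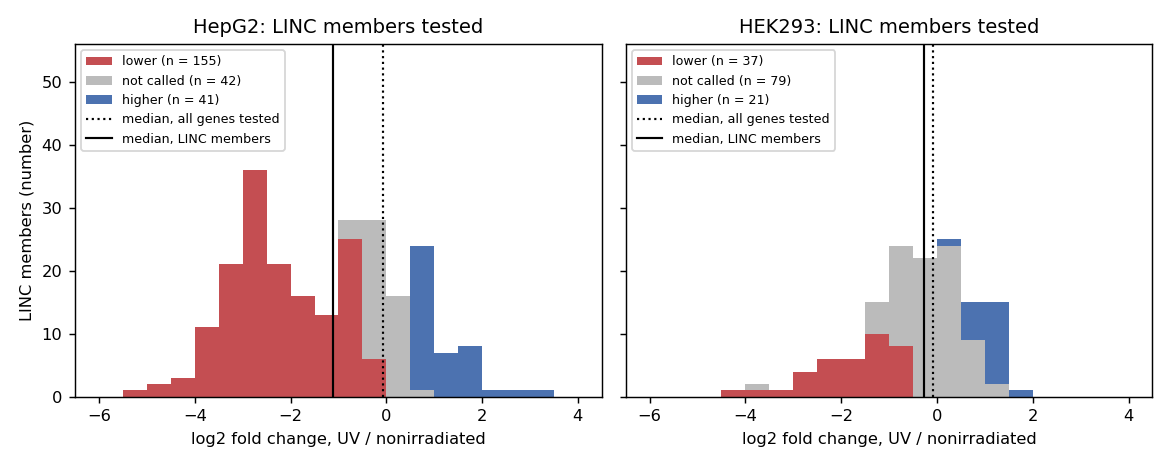
Number of LINC members by log2 fold change after UV irradiation, in classes of 0.5, for HepG2 (238 tested) and HEK293 (137 tested). Colours give the call, the solid line the median of the members and the dotted line the median of all genes tested. In HepG2 the tallest class, from -3.0 to -2.5, lies well to the left of both medians.

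The low group in HepG2 was made up largely of members that HEK293 hardly expressed. Of 126 members at 2 CPM in HepG2 and under 0.5 CPM in HEK293, 97 were lower (77.0%, against 40.7% of all genes tested) and 19 higher (15.1%, against 38.1%). Their median log2 fold change was -2.40. Of the 62 members at 2 CPM in both lines, 29 were lower (46.8%) and 14 higher (22.6%) in HepG2, with a median of -0.39. HEK293 did not show this order. Its 25 members under 0.5 CPM in HepG2 had 5 lower and 9 higher with a median of 0.07, and the 62 members of both lines had 23 lower and 6 higher with a median of -0.29. The T share of the exons was close in the classes of HepG2 alone and of both lines, at a median of 26.1% in the members of HepG2 alone and 26.0% in those of both lines, and 23.2% in the 25 members of HEK293 alone. Other features differed. Of the members of HepG2 alone 23 of 126 share exon bases with another gene and 10 have nearly identical copies over 20% or more of their exon bases, against 31 and 18 of the 62 members of both lines, and the median exon length was 2498 against 3811 bases. The part of these features in the difference was not tested. The 126 members reached the limit only through nonirradiated HepG2 values, which are also the baseline of their fold change there. The same holds for the 25 members in HEK293, whereas the 62 reached the limit in either line. The part of this choice in the difference was not tested, and other genes were not split in this way.

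The member lowest after irradiation in HepG2 was LINC00670, which lies on chromosome 17 from 12549782 to 12642854 (hg38), 23036 bases from MYOCD, the nearest protein-coding gene. Its normalized CPM, computed with the composition factors of edgeR (TMM), was 6.30, 3.86 and 4.48 in the nonirradiated samples and 0.0928, 0.113 and 0.132 in the irradiated ones. The groups did not overlap, and the irradiated libraries held 3, 3 and 4 counts. The log2 fold change was -5.41 ± 0.32 (SE, n = 3 per group, edgeR adjusted p = 8.7e-07), or 42.4-fold lower. LINC00670 had no count in any HEK293 sample.

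LINC02912, which is made of 1 exon block, was at 3.58, 1.94 and 2.17 normalized CPM without irradiation and 0.0928, 0.151 and 0.0658 with it. All irradiated samples lay far under the nonirradiated ones, with a log2 fold change of -4.62 ± 0.42 (SE, edgeR adjusted p = 1e-05). LINC01355, also of 1 exon block and with 33.6% T in its exons, was at 11.7, 8.95 and 9.93 and fell to 0.649, 0.340 and 0.329. It lies on chromosome 1 from 23281309 to 23286752, on the minus strand, 17019 bases from HNRNPR, which encodes an RNA-binding protein. Its log2 fold change was -4.50 ± 0.23 (SE, edgeR adjusted p = 4.2e-07). LINC01776 and LINC00547 were the next in order, with log2 fold changes of -4.35 ± 0.38 and -4.09 ± 0.34 (SE). LINC01776 went from 3.03 to 5.52 normalized CPM down to 0.0987 to 0.247, and LINC00547 from 3.29 to 5.31 down to 0.113 to 0.340. Neither gene had a count in HEK293.

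The 5 members highest after irradiation in HepG2 among those at 2 CPM there all had exons shorter than the median of the members. LINC01783 was higher still but lay below that limit in HepG2, and is described with the lines. LINC00324, 778 bases from CTC1, a gene of telomere maintenance, was at 1.22, 2.02 and 2.17 normalized CPM without irradiation and 10.9, 11.7 and 11.3 with it, and the groups were widely apart. Its log2 fold change was 2.63 ± 0.19 (SE, edgeR adjusted p = 2.1e-06), or 6.21-fold higher. LINC03064 rose by 2.17 ± 0.20 (SE) on the log2 scale, from 1.01 to 1.84 normalized CPM up to 6.53 to 7.30. LINC02482, LINC02413 and LINC01101 had log2 fold changes of 1.98 ± 0.17, 1.94 ± 0.16 and 1.74 ± 0.13 (SE). The exons of the 5 genes span 2082, 1137, 1167, 1251 and 1884 bases in the order named, against a median of 2623 over all members. LINC02413 shares 32.7% and LINC02482 18.3% of its exon bases with another listed gene, whose reads were counted for both. These increases are relative to the other genes of the library. With library sizes alone, which do not correct for composition, all 5 genes remained positive, at 0.44 to 1.33, while the median of all genes moved to -1.38. The split of the members in HepG2 then became 215 lower and 9 higher, that is 90.3% and 3.78%, beside 78.7% and 8.62% of all genes tested.

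**Figure D3:**
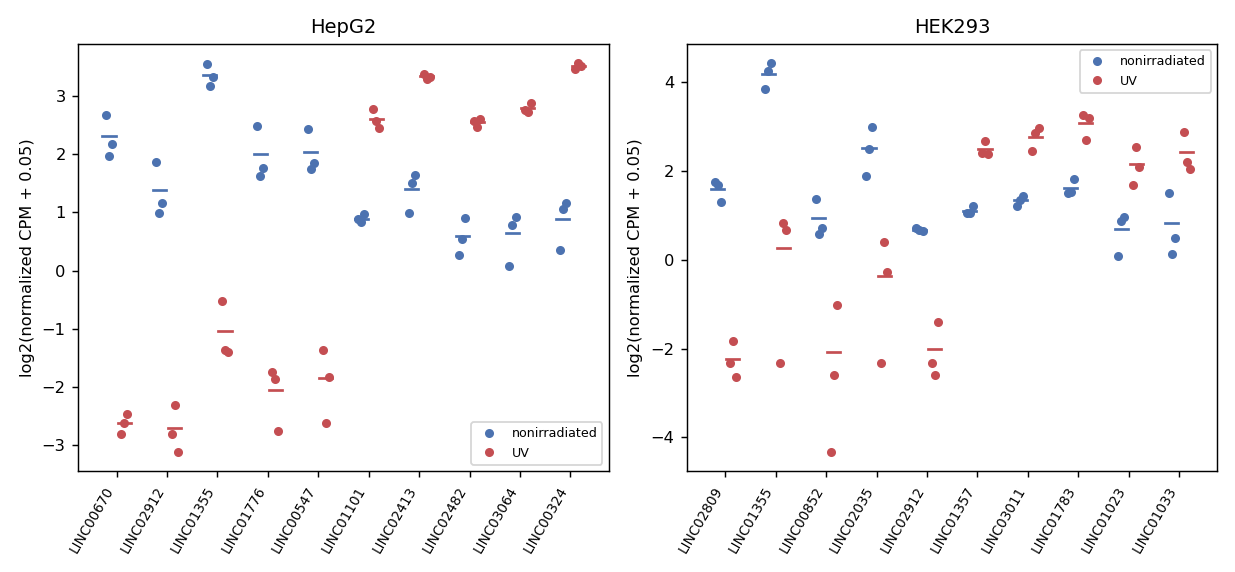
Level in each sample of the 5 most negative and the 5 most positive log2 fold changes in each line among called members at 2 CPM or more there whose groups do not overlap, as log2 of normalized CPM plus 0.05, with points for samples and bars for the mean of 3. The irradiated samples of LINC01355 in HEK293 lie farther apart than in HepG2.

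The most abundant members per exon length were read in HepG2. In RPKM, the counts of nonirradiated samples scaled by exon length and library size, LINC01873 was at 69.2, LINC00504 at 66.0, LINC00506 at 64.0, LINC03037 at 36.0 and LINC02043 at 20.3. LINC00504 lies on chromosome 4 from 14470465 to 14888169, far from the nearest protein-coding gene, CPEB2. It was at 301, 167 and 176 normalized CPM without irradiation and 16.6, 13.5 and 12.9 with it, a log2 fold change of -3.90 ± 0.24 (SE, edgeR adjusted p = 1.1e-06). LINC00506, on chromosome 3 from 87089129 to 87157069, was at 287, 158 and 169 and fell to 19.4, 15.2 and 16.2, with a log2 fold change of -3.59 ± 0.24 (SE). Nonirradiated sample 1 was the highest of the 3 for both, and every irradiated sample was far under every nonirradiated one. That sample was also the highest of its group for LINC00670, LINC02912 and LINC00261, and the lowest for LINC00324. Without it LINC00504 came to -3.65 (edgeR adjusted p = 1.6e-53) and LINC00324 to 2.36 (edgeR adjusted p = 2.6e-27). Without this sample the edgeR adjusted p also fell for LINC00511, from 4.8e-06 to 1e-17, though its value there was not extreme. The p-values in HepG2 thus depend strongly on whether this library is in the fit, not only for genes where it stands out. The cause of this shift was not tested. LINC01873, at 54.7 to 108 without and 10.5 to 12.5 normalized CPM with irradiation, had a log2 fold change of -2.71 ± 0.25 (SE), and LINC02043 one of -2.18 ± 0.15 (SE). LINC03037 stood apart from them. Its values were 29.6, 20.7 and 22.6 without and 26.6, 26.6 and 26.5 with irradiation, and its log2 fold change was 0.13 ± 0.13 (SE, edgeR adjusted p = 0.36). Without nonirradiated sample 1 it was called higher, at 0.22 (edgeR adjusted p = 0.00035). In nonirradiated HEK293 none of the 5 genes exceeded the 1.72 CPM of LINC02043. LINC00504, LINC00506, LINC01873 and LINC02043 also have stretches over 22.8% to 78.7% of their exon bases that are nearly identical in transcripts of other genes, so their counts are uncertain to that extent.

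In HEK293 the LINC members were called lower about as often as all genes and called higher less often. Of 137 members tested, 37 were lower and 21 higher after irradiation, which is 27.0% against 26.4% of the 20472 genes tested, and 15.3% against 24.2%. The median log2 fold change was -0.28, beside -0.08 for all genes. For the 100 members at 2 CPM in HEK293, 32 were lower and 20 higher, with a median of -0.20, and the other lncRNAs at that limit had 532 of 1977 (26.9%) lower and a median of -0.08. The samples of HEK293 with the same number deviated together, and with the replicate number as a block 47 members were lower (34.3%, against 35.3% of all genes) and 32 higher (23.4%, against 32.7%). Both fits agreed on all 37 and all 21 members of the unblocked fit. With library sizes alone the split was 69 lower and 5 higher, or 50.4% and 3.65%, beside 54.6% and 7.61% of all genes. Where at least 10 counts were asked of every sample, 18 of 79 members were lower and 19 higher, and the median turned to 0.16. The scaling was then recomputed on the genes left, and no share of all genes under this filter is given. The remaining 126 members were below the limit of the test, with at most 0.457 CPM in nonirradiated HEK293, and 30 had no count there. The HEK293 libraries held far fewer counts than those of HepG2, and a smaller share of all genes was called in them.

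LINC02809 was the lowest member in HEK293. It lies on chromosome 1 from 228073909 to 228076550, in 1 exon block 6110 bases from ARF1, which encodes a small GTPase of vesicle transport. Its normalized CPM was 3.30, 3.15 and 2.42 without irradiation and 0.150, 0.232 and 0.111 with it, the latter from 1, 2 and 1 counts. The log2 fold change was -4.07 ± 0.42 (SE, edgeR adjusted p = 0.0001). LINC01355, the next, was at 14.3, 19.1 and 21.4 without irradiation and 0.150, 1.74 and 1.55 with it. Irradiated sample 1 was the lowest and all 3 were far below the nonirradiated samples, with a log2 fold change of -3.90 ± 0.42 (SE, edgeR adjusted p = 0.00012). Next by value was LINC02226, at -3.85 ± 2.00 (SE, edgeR adjusted p = 0.14), a gene named after its values were seen. It had 225 counts in nonirradiated sample 1, 10 in irradiated sample 1 and none in the other 4 libraries, so its place among the members rests on 1 library. With the block it was called lower, at -3.62 (edgeR adjusted p = 9.1e-12), from that single pair of libraries. LINC00852, LINC02035 and LINC02912 followed at -3.11 ± 0.63, -2.87 ± 0.49 and -2.85 ± 0.46 (SE). LINC00852 shares 5.42% of its exon bases with GHRL, the gene of the hormone ghrelin. The 5 genes called consist of a single exon block, and LINC02226 has 6 blocks. Of the 24 members of 1 exon block tested in HEK293, 13 were lower (54.2%, against 26.4% of all genes) and 1 higher (4.17%, against 24.2%). Their median was -0.83, and the 13 include the 5 called genes named here. Of 113 members with more blocks 24 were lower and 20 higher, with a median of -0.17. HepG2 had the reverse order, with a median of -0.18 in 26 members of 1 block and -1.34 in 212 members with more. Spearman's ρ of the log2 fold change with the number of blocks in HEK293 was 0.20 for the members. It was 0.08 for the other lncRNAs and -0.31 for protein-coding genes.

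The highest members in HEK293 changed less than those of HepG2. LINC01033 was at 2.79, 1.05 and 1.36 normalized CPM without irradiation and 7.34, 4.52 and 4.09 with it, a log2 fold change of 1.60 ± 0.39 (SE, edgeR adjusted p = 0.0081). LINC01023 had a log2 fold change of 1.49 ± 0.33 (SE), LINC01783 of 1.46 ± 0.23, LINC03011 of 1.45 ± 0.23 and LINC01357 of 1.41 ± 0.22. LINC01023, LINC01783 and LINC01357 are nearly identical to transcripts of other genes over 68.3% to 100% of their exon bases, and LINC01357 shares 68.1% of its exon bases with LINC01356, another member on the other strand. Without a strand option in the counting, reads of LINC01356 and LINC01357 cannot be told apart there. All 5 of these genes stayed positive with library sizes alone, at 0.65 to 0.83, but LINC01033 and LINC01023 then missed the threshold (edgeR adjusted p = 0.07 and 0.11).

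By RPKM the leading members of HEK293 were LINC00205 at 11.1, LINC02381 at 11.0, LINC02693 at 10.1, LINC02951 at 9.61 and LINC02987 at 7.55, well under the leading members of HepG2. LINC00205, 152 bases from POFUT2, a gene of protein O-fucosylation, was at 77.2, 69.2 and 48.8 normalized CPM without irradiation and 30.4, 32.4 and 18.6 with it. Its log2 fold change was -1.26 ± 0.24 (SE, edgeR adjusted p = 0.0021), and in HepG2 it was -1.01 ± 0.10 (SE, edgeR adjusted p = 2.1e-05). LINC02381, which lies on chromosome 12 from 54126098 to 54142493, rose from 21.4, 19.4 and 17.7 to 54.3, 42.4 and 41.9, a log2 fold change of 1.24 ± 0.15 (SE, edgeR adjusted p = 0.00022). LINC02693 was lower, at -1.15 ± 0.13 (SE), and LINC02987 was lower by a smaller amount, at -0.51 ± 0.14 (SE), a call lost without irradiated sample 2 (-0.45) or nonirradiated sample 2 (-0.48). For LINC02951, which shares 67.7% of its exon bases with RAB30-DT, the log2 fold change was 0.47 ± 0.24 (SE, edgeR adjusted p = 0.13).

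The lines were compared directly on the 112 members tested in both. Of these, 60 had a negative and 24 a positive log2 fold change in both lines, and 28 differed in sign. Spearman's ρ between the lines was 0.61 across these 112 genes, which share libraries within a line and are not independent replicates. These sign counts and this ρ were not computed for all genes or for other lncRNAs. The difference of the UV effect, HepG2 minus HEK293, passed the test (edgeR interaction of UV and line) for 16 members more negative in HepG2 and for 5 more negative in HEK293. This is 14.3% against 4.85% of the 16759 genes tested, and 4.46% against 3.10%. With the replicate block these were 25 members (22.3%, against 8.61%) and 9 members (8.04%, against 12.5%), among them all of the 16 and all of the 5. With library sizes alone they were 36 (32.1%, against 17.5%) and 2 (1.79%, against 0.716%). Single libraries moved these counts. Those more negative in HepG2 came to 10 without irradiated sample 2 or nonirradiated sample 2 of HEK293, or without irradiated sample 2, irradiated sample 3 or nonirradiated sample 3 of HepG2. Those more negative in HEK293 came to 3 without irradiated sample 2 or 3 of either line.

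LINC01356 had the smallest p of the members more negative in HepG2. In HepG2 it was at 0.781, 0.728 and 1.03 normalized CPM without and 0.340, 0.113 and 0.164 with irradiation. In HEK293 it was at 2.54, 3.07 and 2.50 without and 5.55, 6.84 and 6.08 with it. The groups did not overlap in either line and moved in opposite directions, by -1.99 ± 0.41 and 1.19 ± 0.22 (SE) on the log2 scale. The difference was -3.27 ± 0.41 (SE, edgeR adjusted p = 0.00032), and as given above part of its reads may belong to LINC01357. LINC02367 had a log2 fold change of -3.50 ± 0.40 in HepG2 and 0.36 ± 0.40 in HEK293 (SE), a difference of -3.95 ± 0.60 (SE, edgeR adjusted p = 0.0013). LINC01152, which shares 6.72% of its exon bases with SOX9-AS1 and lies 79723 bases from SOX9, a transcription factor gene, had -3.62 ± 0.55 in HepG2 and -0.07 ± 0.31 in HEK293 (SE). In the HepG2 libraries it had 45 to 73 counts without and 0 to 3 with irradiation, and in HEK293 15 to 25 and 9 to 15.

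In the other direction LINC01783 was higher after irradiation in both lines but more so in HepG2, by 3.42 ± 0.21 against 1.46 ± 0.23 (SE) on the log2 scale. Its nonirradiated samples in HepG2 were at 0.349 to 0.423 and its irradiated samples at 3.45 to 5.01 normalized CPM. All of its exon bases have a nearly identical copy in another gene, so the count of either is uncertain. LINC02693 was lower in HEK293, at 63.1 to 76.3 without and 29.6 to 31.8 with irradiation, whereas its log2 fold change in HepG2 was -0.20 ± 0.10 (SE, edgeR adjusted p = 0.082). The difference was 0.85 ± 0.15 (SE, edgeR adjusted p = 0.0042), and 0.41 with library sizes alone (edgeR adjusted p = 0.086). LINC01126, 601 bases from ZFP36L2, which encodes an mRNA-decay factor, was lower in HEK293 (-1.09 ± 0.33, SE) and higher in HepG2 (0.59 ± 0.16, SE). With library sizes alone its value in HepG2 became -0.71, so its direction there depends on the scaling.

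**Figure D4:**
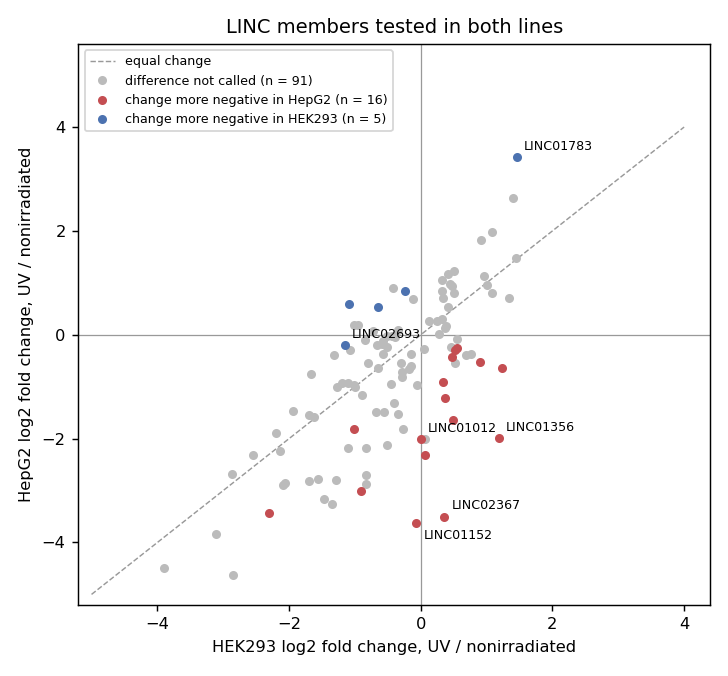
Log2 fold change after UV irradiation in HEK293 (x axis) and HepG2 (y axis) of the 112 LINC members tested in both lines. Red points mark the 16 members with a change more negative in HepG2 and blue points the 5 with a change more negative in HEK293, and the 6 with the smallest p are named. LINC01356 lies at 1.19 in HEK293 and -1.99 in HepG2, in the corner of opposite changes.

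Of 20 LINC genes listed for what is known of them, 13 were members. LINC00261, a gene of endodermal tissues 2363 bases from FOXA2, a transcription factor of liver, was at 53.5, 36.7 and 37.7 normalized CPM in HepG2 without and 26.2, 24.9 and 24.6 with irradiation. The groups did not overlap and the log2 fold change was -0.76 ± 0.14 (SE, edgeR adjusted p = 0.00093), but 86.1% of its exon bases are also counted for another listed gene. LINC00632, the gene at which the circular RNA CDR1-AS arises, was lower in HepG2, at 1.35 to 1.92 without and 0.0658 to 0.189 with irradiation, a log2 fold change of -3.80 ± 0.37 (SE, edgeR adjusted p = 1.5e-05). LINC00665 and LINC00662, both on chromosome 19, were lower in HepG2, by -1.22 ± 0.26 and -0.65 ± 0.16 (SE), and in HEK293 their log2 fold changes were 0.37 ± 0.22 and -0.17 ± 0.17 (SE), neither past the test. With the block LINC00665 passed in HEK293 (edgeR adjusted p = 0.00057), as it did without nonirradiated sample 1 (0.57). LINC01138 was lower in HepG2 at -0.60 ± 0.15 (SE), and its value in HEK293 was -0.15 ± 0.29 (SE), or 0.05 without nonirradiated sample 2.

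LINC00511, LINC00467 and LINC01234, which are studied as lncRNAs of tumour cells, were higher in HepG2, with log2 fold changes of 0.81 ± 0.07, 1.17 ± 0.14 and 1.05 ± 0.11 (SE). LINC00511 went from 16.3, 16.4 and 15.9 to 28.4, 28.4 and 28.3 normalized CPM, with little spread in either group. With library sizes alone these values became -0.50, -0.13 and -0.25, so they are increases relative to the other genes only. In HEK293 LINC00511 and LINC00467 were at 0.51 ± 0.24 and 0.42 ± 0.19 (SE), short of the threshold, and LINC00467 passed it with the block (edgeR adjusted p = 0.0083) or without irradiated sample 2 (0.59). LINC00667 was lower in HEK293 (-0.58 ± 0.17, SE, edgeR adjusted p = 0.02) and at -0.12 ± 0.10 (SE) in HepG2. Its call in HEK293 was lost without irradiated sample 2 (-0.45), irradiated sample 3 (-0.54) or nonirradiated sample 3 (-0.45), and it was called lower in HepG2 without nonirradiated sample 1 (-0.22). LINC01554, a gene of liver, was at 0.15 ± 0.14 (SE) in HepG2. LINC01116 and LINC00461, the latter a neural gene that shares exon bases with the precursor of miR-9, were at 0.79 ± 0.33 and -0.27 ± 0.50 (SE) in HEK293, neither past the test. LINC01116 passed with the block (edgeR adjusted p = 0.0027), with a filter of 1 count over the samples (0.78, edgeR adjusted p = 0.029) and without irradiated sample 2 (1.08). It came to 0.38 without irradiated sample 1 (edgeR adjusted p = 0.26) and to 0.01 with library sizes alone (edgeR adjusted p = 0.98). LINC00461 turned to 0.55 without nonirradiated sample 3.

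Members with more T in their exons were lower after irradiation in both lines. The T share of the members' exons ran from 14.8% to 35.3% with a median of 25.6%. In HepG2 the median log2 fold change was -0.49 in the lowest quartile of T share, then -0.94, -1.47 and -2.21 in the highest, and 30 of 60, 37 of 59, 41 of 59 and 47 of 60 members were called lower. In HEK293 the medians were 0.42, -0.18, -0.58 and -0.84, with 6 of 35, 5 of 34, 11 of 34 and 15 of 34 called lower. Spearman's ρ of the log2 fold change with T share was -0.29 across 238 members in HepG2 and -0.40 across 137 in HEK293. The other lncRNAs had -0.40 in both lines and protein-coding genes -0.43 and -0.46, so this relation was not particular to the LINC members. Genes of a line share their libraries, and T share goes with the content of G and C, for which the ρ of the members was 0.27 and 0.33.

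**Figure D5:**
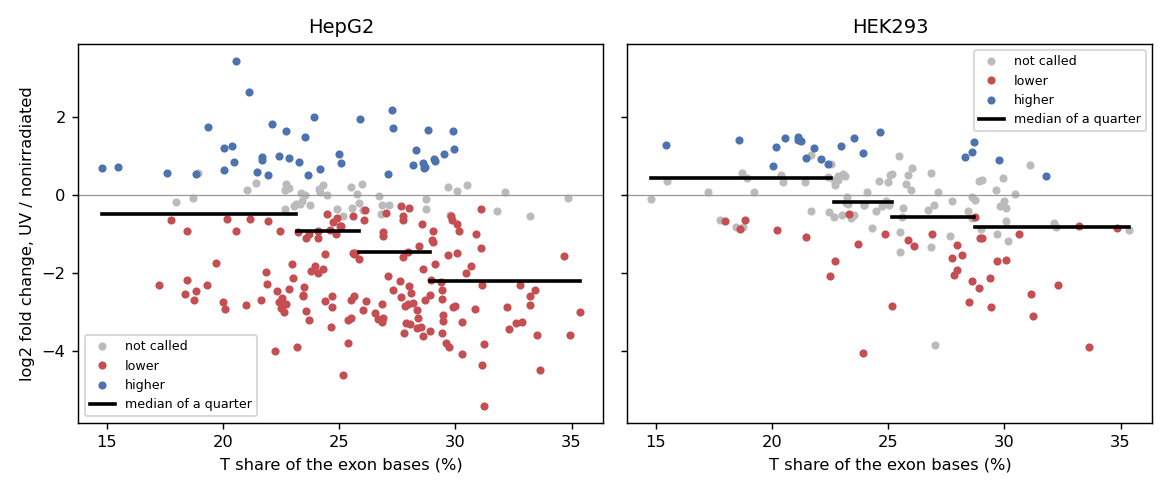
Log2 fold change after UV irradiation of each LINC member against the T share of its exon bases in percent, for HepG2 and HEK293, with colours for the call and black lines for the median of each quartile of T share. The lines step down from -0.49 to -2.21 in HepG2 and from 0.42 to -0.84 in HEK293, with wide scatter around each.

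Exon length went with the change in a different way in each line. In HepG2 the shortest quartile of members had 24 lower and 22 higher of 60 and a median of -0.27, and the next 3 quartiles had medians of -2.33, -1.90 and -1.01, so the shortest stood apart and the change grew smaller again with length. In HEK293 the medians were 0.33, -0.06, -0.31 and -0.57 from the shortest to the longest. Spearman's ρ with exon length was -0.15 in HepG2 and -0.24 in HEK293, beside -0.55 and -0.56 for protein-coding genes. With nonirradiated RPKM, ρ was 0.09 and 0.11 for the members and 0.35 and 0.22 for protein-coding genes. The letters TGTANATA, the core motif bound by Pumilio proteins, were searched on the transcribed strand of the exons. They occurred in 61 of 263 members (23.2%) and in 29.5% of all 20117 genes tested in HepG2, and ρ between matches per kilobase and the log2 fold change was -0.13 in HepG2 and -0.11 in HEK293.

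Overlap with other genes bears on what these counts hold. A read on several genes was counted for each, and 86 of 263 members share exon bases with another listed gene, 7 of them over 50% or more. In HepG2 the 161 tested members without a shared base had 109 lower and 27 higher and a median of -1.82, and the 77 with shared bases had 46 and 14 and a median of -0.65. In HEK293 the same classes had 22 lower and 9 higher of 74 with a median of -0.48, and 15 and 12 of 63 with a median of -0.17. Of the 49 members with nearly identical copies over 20% or more of their exon bases, 44 were tested in HepG2, with a median of -0.65, and 39 in HEK293, with a median of -0.05. Of the members, 78 overlap a protein-coding gene or lie within 5 kb of the nearest, and 93 lie more than 50 kb from it. The first had a median of -0.76 in HepG2 (71 tested) and -0.45 in HEK293 (55 tested), and the second -1.68 (86 tested) and -0.17 (38 tested), so distance had no common order in the lines. In GENCODE 44 the class of 254 members is lncRNA, and the other 9, with 2 lower and 2 higher in HepG2, are in other classes.

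Summed over all 263 members, their share of library counts was 0.233% ± 0.0417 (SD, n = 3) in nonirradiated and 0.0484% ± 0.00115 in irradiated HepG2. In HEK293 it was 0.109% ± 0.00417 and 0.0551% ± 0.00420. All irradiated samples were lower than all nonirradiated ones in both lines, and the exact two-sided permutation test gave p = 0.1 in each, the smallest that 3 against 3 allows. These shares are of library totals without a composition factor. On the log2 scale they changed by -2.27 in HepG2 and -0.99 in HEK293. With library sizes alone, the median log2 fold change of the tested members was -2.41 and -1.04, beside -1.38 and -0.84 for all genes tested. A summed share weighs abundant genes more than a median over genes does, so the share and these medians are unlike measures. The members were also chosen for high nonirradiated values. LINC00504, LINC00506 and LINC01873 alone gave 32.6% of the members' counts in nonirradiated HepG2, and LINC02693, LINC00205 and LINC02210 gave 20.8% in HEK293.

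Other named groups of lncRNAs at 2 CPM show where the LINC members stand. Intronic transcripts with symbols ending in -IT were 14 lower of 16 in HepG2 (median -3.95) and 6 of 7 in HEK293 (median -3.53). Host genes of snoRNAs, named SNHG, were 15 higher of 23 in HepG2 and 17 of 23 in HEK293, with medians of 1.06 and 1.23. Antisense genes ending in -AS had medians of -0.21 and -0.03, divergent transcripts ending in -DT -0.18 and 0.04, and miRNA host genes -0.57 and -0.35. Of 60 lncRNAs that now bear another symbol and have a LINC number among their older names in RefSeq, 30 were lower and 21 higher in HepG2, with a median of -0.40, and in HEK293 10 and 14 of 57 with a median of 0.04. Among single lncRNAs of known function, NEAT1, the scaffold of paraspeckles, had log2 fold changes of -4.17 ± 0.37 in HepG2 and -2.86 ± 0.16 in HEK293 (SE), so LINC00670, LINC02912, LINC01355 and LINC01776 had point values below it in HepG2. MALAT1 had -2.60 ± 0.37 and -2.02 ± 0.34 (SE), NORAD -1.07 ± 0.07 and -1.30 ± 0.15, TUG1 -1.55 ± 0.13 and -1.30 ± 0.25, and OIP5-AS1 -0.68 ± 0.07 and -1.29 ± 0.16. GAS5 and DANCR, which host snoRNAs, had 1.64 ± 0.10 and 1.93 ± 0.10 in HepG2 (SE) and 1.66 ± 0.18 and 1.26 ± 0.14 in HEK293. MEG3 was at -2.50 ± 0.39 (SE) in HepG2, MIAT at -1.19 ± 0.26 in HEK293, CYTOR at 0.64 ± 0.10 and 0.56 ± 0.19, and PVT1 at 0.02 ± 0.21 and 1.03 ± 0.15. H19 was at 0 CPM in nonirradiated HepG2 and 0.07 in HEK293.

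Genes of a family that neither line was expected to express also lost counts after irradiation. The 404 olfactory receptor genes, a list chosen after seeing the data, had a pooled level, their summed normalized CPM divided by their summed exon length in kilobases, of 0.0111 in nonirradiated and 0.00239 in irradiated HepG2, and of 0.0138 and 0.00518 in HEK293. Of the 404, 318 were at 0 in nonirradiated HepG2 and 244 in nonirradiated HEK293, and 4 and 1 were at 1 CPM or more. The pooled level of the receptors thus rests on part of the list. The pooled level of the tested members, computed in the same way, was 1.77 and 0.904 in HepG2 and 1.57 and 1.34 in HEK293, far above. A few abundant members weigh on the pooled level. The median of the tested members was 0.992 and 0.406 in HepG2 and 1.25 and 0.728 in HEK293. The lowest tested member was at 0.156 RPKM in nonirradiated HepG2 and 0.0534 in nonirradiated HEK293. Fibroblast and blood cell markers were at most 4.76 and 0.318 CPM in sum in any sample. The part of such counts in the change of the members was not tested.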

How the data were processed

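RNA of 12 human samples was analysed, and 12 mouse samples were not used. According to the labels and the study's methods, the authors extracted RNA with TRIzol, removed ribosomal RNA with Ribo-Zero, and made TruSeq libraries, which the labels call stranded and the methods name as a kit that keeps no strand. They sequenced HepG2 on a HiSeq4000 and HEK293 on a HiSeq2500. The submitters' processing notes name TopHat2 2.1.1 and the hg38 build. Per the file headers, reads on exons of GENCODE 28 genes were counted with featureCounts 1.5.3 (HepG2) or 1.6.1 (HEK293), every overlapping gene receiving the read, with no option for strand. The deposited counts are whole numbers per gene without normalization, and each file's length column gives the exon bases. Symbols and classes came from GENCODE 44 by Ensembl ID, for 57799 of 58381 genes.

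CPM was computed on library totals. Irradiated and nonirradiated samples of each line were compared by edgeR 4.0.16 in R 4.3.3 (TMM factors, quasi-likelihood test, Benjamini-Hochberg over genes at a nonirradiated mean of at least 0.5 CPM, called at adjusted p under 0.05), and the lines by the interaction term. A standard error is the log2 fold change divided by the square root of F. The share of counts was compared by an exact permutation test over samples. DESeq2 1.42.0, other scalings, filters and member limits, the replicate block and leaving out each sample were tried as alternatives. The same replicate numbers occur in both groups of a line, and the labels do not say what they mark. Deviations of same-numbered samples from their group means correlated at 0.654, 0.368 and 0.461 in HEK293, which was taken as pairing. In HepG2 they correlated at -0.00943, 0.00702 and -0.0244, which was not. In HEK293 samples 2 and 3 also correlated under different numbers, at 0.281 and 0.262, so their pairing is less clear than that of sample 1. Values and calls of HEK293 and of the interaction come from the fit without the block, which ignores the pairing, unless the block is named. The code was tested on simulated data, with the same spread set for every gene rather than that of the data. It recovered 47% of 2-fold changes for HepG2, 53% for HEK293 and 11% for the interaction. Of 4-fold changes it recovered 97%, 98% and 82%.

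T share, runs and motif matches were read from the exons in hg38. Near-identical copies are stretches of at least 200 bases at 95% identity or more in GENCODE 44 transcripts of another gene (minimap2 2.31). Exons on 1 chromosome were left without a printed sequence. Tables and figures were made with Python 3.11.15, numpy 2.4.6, scipy 1.17.1, pandas 2.3.3 and matplotlib 3.10.9.

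The members, lists and tests were chosen with earlier results of these data known. The genes named are, in each line, the 5 most negative and 5 most positive among called members at 2 CPM whose groups do not overlap, the 5 with the highest nonirradiated RPKM, the 3 interactions with the smallest p in each direction, and the members among 20 LINC genes listed for what is known of them. Genes named beyond this rule, in the paragraph on flagged results included, were chosen after seeing their values. The totals of 9444707 to 53511592 counts set the precision, and members at 2 CPM in HEK293 rest on about 20 counts a sample.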

Additional observations from a re-analysis of the deposited data

Results flagged for a closer look

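For 21 members the effect of UV differed between HepG2 and HEK293 (edgeR interaction, adjusted p under 0.05, HepG2 minus HEK293 on the log2 scale with SE). Sequencer, counting version and depth differ between the lines with the cells, and their part was not tested. More negative in HepG2 were LINC01356 (-3.27 ± 0.41), LINC02367 (-3.95 ± 0.60), LINC01152 (-3.62 ± 0.61), LINC01012 (-2.11 ± 0.37), LINC02449 (-1.97 ± 0.41), LINC01515 (-0.91 ± 0.19), LINC00665 (-1.69 ± 0.36), LINC00174 (-1.35 ± 0.29), LINC02908 (-2.48 ± 0.56) and LINC00910 (-2.23 ± 0.50), with edgeR adjusted p from 0.00032 to 0.015. The same held for LINC00630 (-0.996 ± 0.26), LINC00869 (-1.54 ± 0.43), LINC00641 (-1.23 ± 0.34), LINC01572 (-0.92 ± 0.26), LINC00216 (-2.19 ± 0.62) and LINC02985 (-0.93 ± 0.27), with edgeR adjusted p from 0.034 to 0.048. More negative in HEK293 were LINC01783 (1.85 ± 0.30), LINC02693 (0.85 ± 0.15), LINC01126 (1.57 ± 0.34), LINC00863 (0.98 ± 0.24) and LINC01311 (1.08 ± 0.27).

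Of these, 4 members passed the test within each line in opposite directions. The share of all genes that did so was not computed, so this count cannot be set against it. LINC01356 and LINC02449 were lower in HepG2 and higher in HEK293, and LINC01126 and LINC01311 were higher in HepG2 and lower in HEK293. LINC01012, a member with no shared exon base and no copy by the measure used, had -2.01 in HepG2 and 0.00 in HEK293 on the log2 scale. LINC00641 was lower in both lines, at -3.44 and -2.31. LINC01783 and LINC00863 have nearly identical copies over 100% of their exon bases, LINC00869 over 63.0% and LINC01572 over 38.4%.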

How the results depend on the processing

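Counts not given here stayed within 1.5 times the reported count under the alternatives run. Filters and member limits also change how many members are tested, so counts are given with that number where it differs from 238 in HepG2, 137 in HEK293 and 112 for the lines. In HepG2 the members called lower came to 100 of 164 where no sample was under 10 counts, 97 of 172 with a mean of 2 CPM over all 6 samples, 65 of 101 with a limit of 5 CPM, 222 of 326 with 1 CPM and 215 with library sizes alone, and those called higher to 9 with library sizes, 18 with 5 CPM and 27 of 161 without shared exon bases. In HEK293 those lower came to 18 of 79 with 10 counts, 69 with library sizes, 20 of 62 with 5 CPM and 22 of 74 without shared bases, and those higher to 5 with library sizes, 32 with the replicate block, 6 with 5 CPM, 9 without shared bases and 13 of 98 without copies, an alternative chosen after seeing the data. In HepG2, where the numbers did not pair the samples, the block gave 157 lower and 41 higher. Members whose UV effect was more negative in HepG2 than in HEK293 came to 27 of 263 with at least 1 count over the samples, 10 of 58 with 10 counts, 36 with library sizes, 25 with the block, 8 of 54 with 5 CPM and 6 of 58 without shared bases. Those more negative in HEK293 came to 2 with library sizes, 9 with the block, 3 with 5 CPM, 2 without shared bases and 3 of 78 without copies.

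The median log2 fold change in HepG2 came to -0.66 with 10 counts, -2.41 with library sizes, -0.64 with the mean over 6 samples, -1.77 with a limit of 1 CPM, -0.76 with 5 CPM, -1.82 without shared bases and -1.54 without copies. In HEK293 it was -0.45 with at least 1 count, 0.16 with 10 counts, -1.04 with library sizes, -0.17 with the mean over 6 samples, -0.47 with 5 CPM, -0.48 without shared bases and -0.41 without copies. The filter of 10 counts tests fewer members, removes those that fell to few counts and recomputes the scaling on the genes left. Under it LINC00205 went from -1.01 to -1.28 and LINC00324 from 2.63 to 2.37 in HepG2. In HEK293 LINC00205 went from -1.26 to -1.37. Its medians and single values are thus on another scale than the main fit. Library sizes shift all genes. The cause of the other moves was not tested.

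Leaving out each sample in turn gave 147 to 166 lower and 39 to 43 higher in HepG2, 26 to 34 and 15 to 22 in HEK293, and 10 to 17 and 3 to 7 for the differences, with medians of -1.20 to -1.08 and -0.34 to -0.21. The change in share of counts then ran from -0.198 to -0.161 percentage points in HepG2 and from -0.0562 to -0.052 in HEK293. It was -0.145 and -0.0276 without shared bases, -0.212 and -0.0489 without the 10 genes with the most counts, and -0.168 and -0.0511 with the mean over 6 samples. Of 681 values of single named members under alternatives, 647 kept direction and call. Library sizes alone reversed LINC00467 (-0.35 in HEK293, -0.13 in HepG2), LINC00511 (-0.26, -0.50), LINC00665 (-0.40 in HEK293), LINC01234 (-0.25 in HepG2), LINC01554 (-1.16 in HepG2), LINC02951 (-0.30 in HEK293) and LINC03037 (-1.17 in HepG2). With 10 counts LINC01554 turned to -0.13 and LINC03037 to -0.15. With single HEK293 samples left out LINC00461 ran from -0.61 to 0.55 and LINC01138 from -0.38 to 0.05. The depth of HEK293 limits calls near 2 CPM.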
